A study of Mus musculus with 24 samples.

Results

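Livers of 3 mice lacking Nudt12 were compared with livers of 3 wild-type mice of the same age, 3 to 4 months, across every gene of the deposited liver table with a mean of at least 1 over the 6 libraries. These 6 samples are part of a series of 24, and 19088 of the 50765 genes in the table met the minimum. Both Nudt12 alleles of the knockout mice lacked 58 bp of exon 6, a whole-animal deletion and not one limited to liver. The hour of collection is not given for these livers, and nothing ties a knockout liver to a wild-type one. Kidneys of the same cohort (2 wild-type and 3 knockout libraries analysed here) and livers of a second cohort aged 4 to 6 months, collected at 6 hours of the day after 10 days in 12 h of light and 12 h of dark (6 wild-type and 6 knockout libraries), were used only where a difference needed a reference. Each library was made from 500 ng of total RNA depleted of ribosomal RNA and read as single ends of 100 bases.

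Nudt12 is a nudix hydrolase of the cytoplasm and peroxisomes. It cleaves NADH and NAD, and it removes the NAD that some RNAs carry at the 5′ end in place of the usual cap, a role in which the series names BLMH, bleomycin hydrolase, as its partner. The liver sets the background for any such comparison. It makes the plasma proteins of the acute-phase response, which hepatocytes produce in large amounts after inflammatory signals such as interleukin 6. It also runs a strong circadian clock, in which Bmal1 (Arntl) and Clock switch on genes with E-box promoters, among them their own repressors of the Per and Cry families, so that many liver RNAs depend on the hour at which the tissue is taken. Feeding, fasting and hormones move a further set of metabolic genes each day.

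The normalized estimated counts summed to between 24.07 and 27.5 (in units of 1000000) per library, with 19517 to 20437 genes above 0. The median ratio between libraries was the same in all 6, so the values had been scaled between libraries before deposit. The hepatocyte product Alb took 2.88 to 5.77% of each library, Xist was at 0 or near 1 in all 6 and Ddx3y was at 1298 to 2086, so hepatocyte RNA was present as labelled and all 6 animals carried a Y chromosome. Mitochondrially encoded genes took 2.27 to 4.54% of 5 libraries and 7.39% in wild-type liver 1. On the first principal component, with 25.6% of the variance, the knockout livers stood at 50, 34.7 and 35.2, and the wild-type livers at 3.26, -66.4 and -56.8. Wild-type liver 1 therefore stood apart from the other wild-type livers, and it was also the far end of the second component, at 71.5 against -63.1 for knockout liver 1. Counts over gene groups were also taken without each of the 6 libraries in turn, and the main ones are given with those values.

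Nudt12 itself was measured first, since it checks the labels. The gene lies on the minus strand of chromosome 17 (chr17:58999618-59013372, GRCm38, GENCODE vM21; identifier ENSMUSG00000024228). It stood at 1301, 986 and 1187 in the wild-type livers and at 211, 235 and 232 in the knockout livers, as normalized estimated counts. The knockout values lay within a narrow band below every wild-type value, at 226 ± 12.9 against 1158 ± 159.6 (SD, n = 3 each), a 5.13-fold difference. The log2 fold change was -2.34 ± 0.17 (SE; limma, Benjamini-Hochberg adjusted p = 0.00944 over all 19088 genes). RNA of the gene was thus reduced and not absent. Blmh, the gene of the named partner, stood at 967, 828 and 1028 in the wild-type livers and at 1041, 1130.3 and 982 in the knockout livers, a log2 difference of 0.16 that did not pass (limma, adjusted p = 0.803). In kidney the log2 difference was -2.34 and in the time-course livers -2.17, and the test of a difference from the young livers did not pass for either (limma, adjusted p = 1 for liver against kidney and 0.883 for young against time course).

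Across the 19088 genes, 3 passed an adjusted p of 0.05 in the 6 livers alone, 0.0157% of those tested. Besides Nudt12, which fell, they were Eci3 and the lincRNA Gm30948, which rose (0.0105% of genes higher and 0.00524% lower). At an unadjusted p under 0.05 there were 742 higher genes (3.89%) and 784 lower genes (4.11%). The groups did not overlap for 2659 genes (13.9%), 1349 higher (7.07%) and 1310 lower (6.86%). Without knockout liver 2, 0 genes passed the adjusted threshold in limma (522 higher and 605 lower at an unadjusted p under 0.05). Without wild-type liver 1 it was passed by 15, Nudt12 and Eci3 among them but not Gm30948. The length and the members of the list therefore depend on single libraries. Adding the kidney libraries of the same cohort to the fit, to share the estimate of spread between samples, gave 66 liver genes past the threshold (0.346%), 33 higher and 33 lower, and the groups did not overlap for any of the 66. Genes were kept by their liver mean, and 60 of the 66 also met the minimum in kidney. Low and even kidney values make the shared spread smaller, so a gene can pass through them. Gm31333, below the minimum in kidney, had an adjusted p of 0.0338 with kidney and 0.126 in the 6 livers alone (limma). These 66 held 56 protein-coding genes and 8 lincRNAs. In the authors' deposited table, 93 liver genes were higher at an adjusted p under 0.05 (0.606% of the 15335 with a value) and 118 lower (0.769%); 57 of the 66 were among them. The labels do not say how the 3 livers of a group were obtained beyond being separate samples, so p-values measure the spread between these samples.

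**Figure D1:**
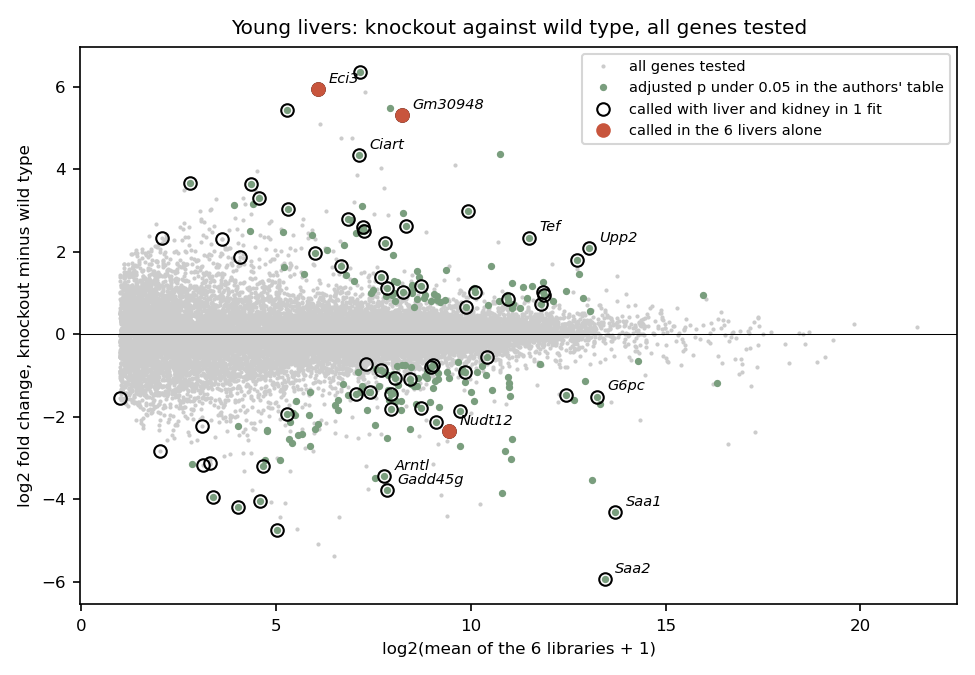
Log2 fold change (knockout minus wild type, on log2(value + 1)) of each of the 19088 genes against log2 of its mean over the 6 libraries plus 1; each point is a gene. The 3 genes called in the 6 livers alone are filled red, the 66 called with kidney in the fit are circled, and genes at an adjusted p under 0.05 in the authors' deposited table are green.

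The lower gene, Nudt12, was the intended target. The higher protein-coding gene, Eci3, encodes an enoyl-CoA delta isomerase of peroxisomes, which moves a double bond so that unsaturated fatty acids can be oxidised. Eci3 (chr13:34946614-34963810) stood at 3.01, 0 and 1.09 in wild type and 94.9, 105 and 194 in knockout. It was near 0 in each wild-type liver and well above that in each knockout liver, with no overlap, a log2 fold change of 5.95 ± 0.59 (limma, adjusted p = 0.047). Its paralog Eci2, on the same chromosome, stood at 3656, 2471 and 3465 in wild type and 4144, 3877 and 4450 in knockout, a log2 difference of 0.40 that did not pass (limma, adjusted p = 0.635). How reads were divided between such related genes is not recorded in the sources here. Eci1, the mitochondrial member, stood at 1359, 1030.5 and 1528 in wild type and 1458, 1738 and 1730.2 in knockout (log2 difference 0.34); its groups overlapped. Eci3 was the one gene whose knockout effect differed between liver and kidney past the threshold: the log2 difference was -0.30 in kidney, 6.25 below the liver one (limma interaction, adjusted p = 0.0245, 1 of 18354 genes or 0.00545%, with 810 or 4.41% at an unadjusted p under 0.05). In the wild-type livers of the time course Eci3 ranged from 0 to 73.1, with 0 at hours 4 and 8 after lights on and 73.1 at hour 12, and in the knockout livers of the time course from 1.07 at hour 0 to 116 at hour 16.

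Gm30948, a lincRNA of chromosome 12 (chr12:115262684-115287908) to which no role is given here, stood at 9.94, 10.4 and 11 in wild type and 255, 317 and 1183 in knockout. The wild-type values were nearly equal and knockout liver 3 was far above the other knockout livers, and the log2 fold change was 5.33 ± 0.54 (limma, adjusted p = 0.047). In kidney it also stood higher in the knockout, by 4.45 on the log2 scale, while in the time course the log2 difference was -0.71. Wild-type livers of the time course ranged from 1.67 to 439 for this RNA, a wider range on the log scale than the gap between the young groups. Gm38246 stood at 0, 1.9 and 4.35 in wild type and 97.8, 143 and 599 in knockout, with a log2 difference of 6.36 (called with kidney in the fit, limma, adjusted p = 0.0112). Gm49116 stood at 0.996, 0 and 0 in wild type and 16.3, 64.7 and 145 in knockout. These 3 RNAs had their highest value in knockout liver 3, and they stood higher in knockout kidney as well, by 3.93 for Gm38246 and 2.94 for Gm49116. In the other direction Gm31508 stood at 15.9, 22.8 and 17.3 in wild type and 0.981, 0 and 0 in knockout, at or near 0 in every knockout liver.

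Genes outside the core clock list that were called with kidney in the fit are described next by what they do. Of the 66, 5 were on that list, but 22 were rhythmic over 24 h in the time course (limma, adjusted p under 0.05). Over all genes tested the rhythmic share was 5.66%. Bdh1 and Slc25a25, described below, were among the rhythmic ones. A place outside the clock list therefore does not mean independence of the unknown hour of collection. Standard errors beside log2 fold changes are those of the 6 livers alone, and genes outside these 66 passed no adjusted threshold here, so higher or lower at an unadjusted p is a description. Among genes of nutrient handling, Upp2, the liver uridine phosphorylase that splits uridine, stood at 3731, 2247 and 3721 in wild type and 15682, 13335 and 11775 in knockout. Every knockout liver was above every wild-type liver by a wide margin, and the log2 fold change was 2.10 ± 0.23 (limma with kidney in the fit, adjusted p = 0.0103). Slc5a6, which carries biotin, pantothenate and lipoate into cells, stood at 67.2, 85.8 and 71.1 in wild type and 489, 227 and 377 in knockout (log2 difference 2.21 ± 0.30, adjusted p = 0.0137 in the same fit). Inmt, an N-methyltransferase of indoleamines, stood at 4462, 1584 and 3396 in wild type and 12614, 10123 and 8183 in knockout, and Bdh1, which makes 3-hydroxybutyrate in ketogenesis, stood at 2984, 2338 and 2688 in wild type and 3966, 4691 and 4725 in knockout. All 4 were higher in each knockout liver than in each wild-type liver.

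G6pc, the catalytic subunit of glucose-6-phosphatase and the last step of glucose release, went the other way. It stood at 11351, 11026 and 20675 in wild type and 5807, 3727 and 5196 in knockout, lower in each knockout liver, with a log2 fold change of -1.51 ± 0.28 (limma with kidney in the fit, adjusted p = 0.0325). Chka, choline kinase alpha at the first step of phosphatidylcholine synthesis, stood at 524, 1067 and 1133 in wild type and 219.6, 165 and 208 in knockout (log2 -2.12 ± 0.30, adjusted p = 0.0149). Slc25a25, which moves adenine nucleotides across the inner mitochondrial membrane, stood at 7042, 6342 and 11381 in wild type and 3716, 2059.6 and 3127 in knockout. Wild-type liver 3 was the highest for each of these 3 genes, and wild-type liver 1 was below the other wild-type livers for Chka but not for G6pc.

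Further lower calls included signalling genes and a transcriptional corepressor. Plekhb2, which encodes a membrane protein with a pleckstrin homology domain, stood at 588, 793 and 569 in wild type and 286, 160.1 and 139 in knockout (log2 -1.79 ± 0.29, adjusted p = 0.0155 in limma with kidney in the fit). Irf2bp2, a transcriptional corepressor that partners IRF2, stood at 1194, 1126 and 1271 in wild type and 585, 643 and 689 in knockout, a small but tight gap of -0.91 ± 0.14 (adjusted p = 0.0137 in the same fit). Stk40 stood at 409.6, 328 and 326 in wild type and 184, 164 and 162 in knockout, Abtb2 at 286, 385 and 405 in wild type and 110.1, 129 and 156 in knockout and Asap2 at 198, 234 and 147 in wild type and 60.5, 72.2 and 75.8 in knockout. Sik1, a salt-inducible kinase that responds to cyclic AMP, stood at 467, 219 and 473 in wild type and 92.3, 155 and 77.3 in knockout. Its groups were close, with knockout liver 2 not far below wild-type liver 2. Rgs16, a brake on G protein signalling that is also on the daily output list, was higher instead, at 327, 141 and 173 in wild type and 2112, 875 and 2222 in knockout (log2 2.99 ± 0.42, adjusted p = 0.0325 in the same fit), and knockout liver 2 was well below the other knockout livers. Ptp4a1, a small tyrosine phosphatase, stood at 810.3, 742 and 658 in wild type and 292, 257 and 352 in knockout. One rule that picked it required groups without overlap, and it did not pass with kidney in the fit (limma, adjusted p = 0.107). In the authors' deposited table it was lower with a log2 fold change of -1.22 and an adjusted p of 1.49e-06.

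Genes of growth arrest and the cell cycle were found in both directions. Gadd45g, a stress-induced gene of growth arrest, stood at 279, 357 and 637 in wild type and 14.5, 64 and 23.9 in knockout, with a log2 fold change of -3.77 ± 0.53 (limma with kidney in the fit, adjusted p = 0.0205). Ccnd1, cyclin D1, which drives entry into the cycle, stood at 206, 249 and 329.8 in wild type and 546, 597 and 591 in knockout (log2 1.17 ± 0.20, adjusted p = 0.0183). Chek2, a checkpoint kinase of the response to DNA breaks, stood at 27.9, 23.2 and 23.9 in wild type and 92.4, 104 and 109 in knockout (log2 1.98 ± 0.27, adjusted p = 0.0183). Like all 66 genes called with kidney in the fit, each of these 3 separated the groups completely. The knockout values were tightest for Ccnd1. Of the 24 genes of the cell cycle and checkpoint list, 4 were higher and 3 lower at an unadjusted p under 0.05 (16.7% and 12.5%, against 3.89% and 4.11% of all genes), and the median log2 difference was 0.10. With a library left out there were 3 to 5 higher and 2 to 3 lower, and the median ran from -0.19 (without wild-type liver 2) to 0.19. The lower ones included Cdkn1a, the cell cycle inhibitor p21, at 15.1, 22.7 and 27.1 and 3.62, 4.86 and 13.8, and the higher ones Wee1, a kinase that delays mitosis and is under clock control, at 71.8, 29.7 and 11 and 251, 172 and 192 (wild type, then knockout). Replication-dependent histone RNAs were among the higher calls: Hist1h2bl stood at 3.02, 1.9 and 5.52 in wild type and 38.9, 34.9 and 50.5 in knockout, Hist1h2bq at 16.1, 25.7 and 44.1 in wild type and 279.6, 126 and 195 in knockout and Hist1h4a at 5.14, 6.81 and 9.88 in wild type and 104, 37.7 and 69.8 in knockout. Across the 55 histone genes of these clusters, 7 were higher and 3 lower at an unadjusted p under 0.05 (3.89% and 4.11% over all genes), with a median log2 difference of 0.15. With a library left out there were 5 to 9 higher and 1 to 3 lower, and without wild-type liver 1 the median was -0.01. Histone genes share long stretches of sequence, and the division of reads among them is uncertain.

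**Figure D2:**
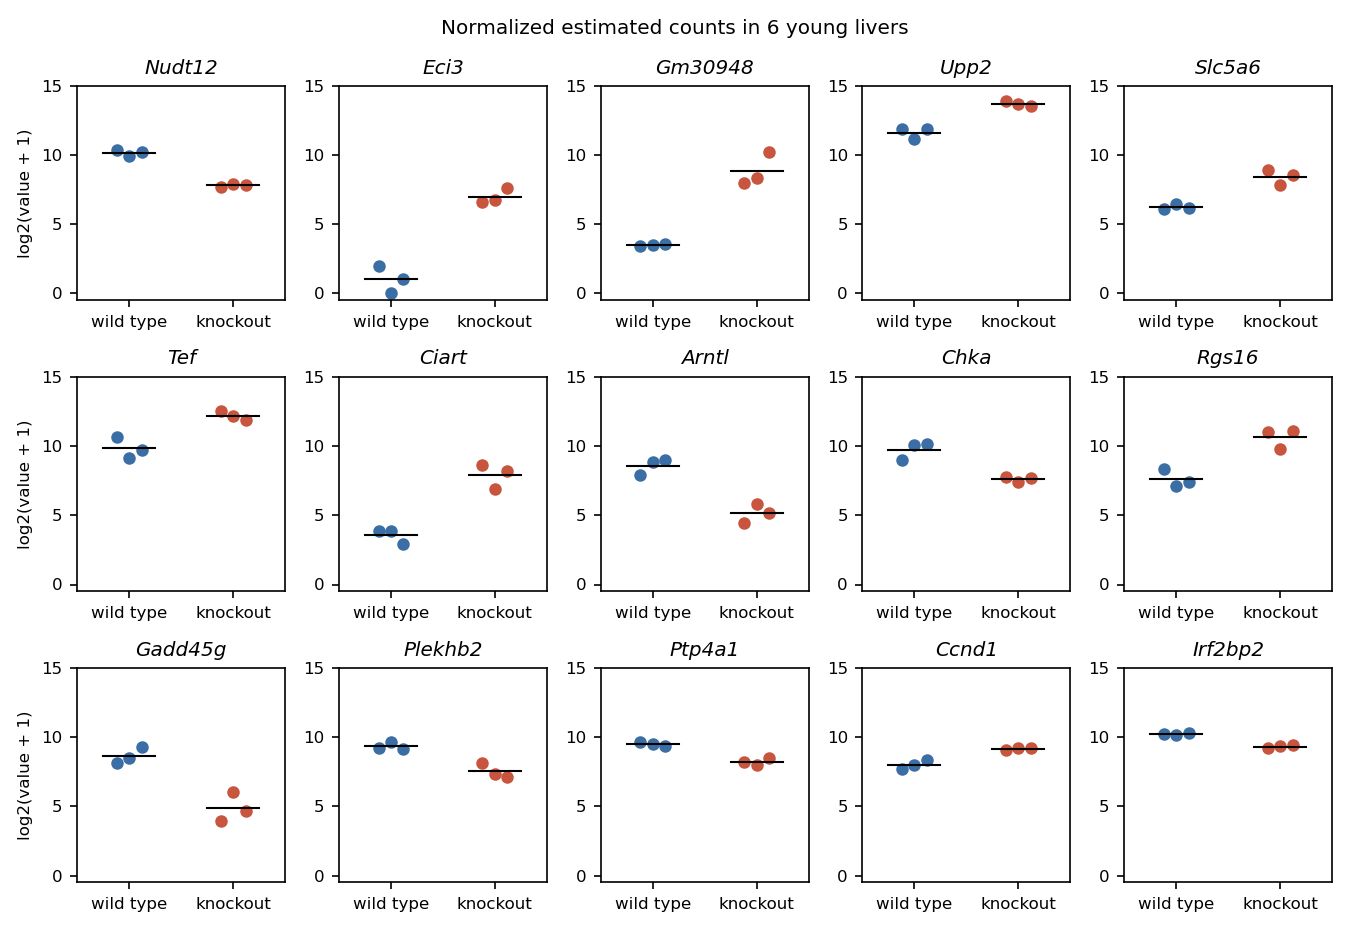
Log2(value + 1) of 15 genes in each of the 6 livers (points; blue wild type, red knockout), with the mean of each group as a black line. Groups do not overlap in any panel, which holds for all 66 genes called with kidney in the fit and was required by a rule that picked Ptp4a1. Nudt12, Chka, Gadd45g, Plekhb2, Ptp4a1, Irf2bp2 and Arntl are lower in the knockout livers and the other 8 are higher.

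The core clock list held 23 genes, all tested. At an unadjusted p under 0.05, 12 were higher and 3 lower (52.2% and 13.0% of the list, against 3.89% and 4.11% of all genes), and the median log2 difference was 0.58 against 0.0029 over all genes. With kidney in the fit, 5 passed, against 0.346% of all genes: Ciart, Usp2, Tef and Per3 were higher and Arntl was lower. In the authors' deposited table, 6 were higher and 3 lower (26.1% and 13.0%, against 0.487% and 0.618% of all genes). Arntl, the activator Bmal1 itself, stood at 237, 458 and 507 in wild type and 21.3, 55.3 and 34.2 in knockout (log2 -3.43 ± 0.41; limma with kidney in the fit, adjusted p = 0.0152). Ciart, a repressor of the Clock and Bmal1 pair, stood at 13.3, 13.6 and 6.58 in wild type and 399, 116 and 289 in knockout (log2 4.36 ± 0.50, adjusted p = 0.0149). The groups did not overlap for either gene; knockout liver 2 was nearest to the wild-type livers for both.

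The start-site windows of 3 clock genes are shown because they carry the elements through which the clock is known to act: the E-box (CACGTG) bound by Clock and Bmal1, the D-box (TTATGNAA) bound by Dbp, Tef, Hlf and Nfil3, and the ROR element (TAGGTCA) bound by ROR and REV-ERB proteins. Each window runs from 250 bases before the annotated start to 50 after it, in RefSeq on GRCm38.p6, 5′ to 3′ on the gene's own strand, with matches on either strand in capitals. Ciart lies at chr3:95882179-95882478 on the minus strand with 3 E-boxes, Per3 at chr4:151044616-151044915 on the minus strand with 2 D-boxes, and one of the 2 start windows of Arntl at chr7:113207261-113207560 on the plus strand with 1 ROR element.
Ciart: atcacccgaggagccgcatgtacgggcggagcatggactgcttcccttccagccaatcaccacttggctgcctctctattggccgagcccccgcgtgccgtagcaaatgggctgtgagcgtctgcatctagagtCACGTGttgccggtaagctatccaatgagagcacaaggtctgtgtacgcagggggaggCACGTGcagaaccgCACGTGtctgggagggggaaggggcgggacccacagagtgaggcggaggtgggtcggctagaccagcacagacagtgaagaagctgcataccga
Per3: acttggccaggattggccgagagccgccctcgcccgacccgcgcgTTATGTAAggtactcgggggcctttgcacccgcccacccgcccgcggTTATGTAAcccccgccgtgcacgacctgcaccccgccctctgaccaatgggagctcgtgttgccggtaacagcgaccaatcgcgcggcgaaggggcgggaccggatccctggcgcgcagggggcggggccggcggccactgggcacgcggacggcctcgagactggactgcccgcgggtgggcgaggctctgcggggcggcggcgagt
Arntl: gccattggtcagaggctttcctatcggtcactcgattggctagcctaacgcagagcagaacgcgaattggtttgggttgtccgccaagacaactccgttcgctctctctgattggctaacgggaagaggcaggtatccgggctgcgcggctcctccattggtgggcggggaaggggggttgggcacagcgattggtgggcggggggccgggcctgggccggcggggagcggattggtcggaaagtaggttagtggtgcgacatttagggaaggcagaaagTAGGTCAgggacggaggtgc
No other motif searched was found in these windows. Over all 32851 start windows, 7.15% held an E-box, 3.38% the D-box and 2.61% the ROR element. Of 18 core clock genes with a window, 5 held an E-box (27.8%, against 8.09% of all 27025 genes), 2 the D-box and 2 the ROR element. A match is a description of the letters only.

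The PAR-bZIP factors, which bind the D-box, stood higher in the knockout livers to different degrees. Tef stood at 1605, 576 and 856 in wild type and 5958, 4578 and 3815 in knockout (log2 2.34 ± 0.35; limma with kidney in the fit, adjusted p = 0.0182). Dbp stood at 401, 32.5 and 36.9 in wild type and 1526, 1202 and 1454 in knockout, and its wild-type liver 1 was far above the other wild-type livers (log2 4.12 ± 0.83, adjusted p = 0.0563 in the same fit). Hlf stood at 445, 109 and 86.9 in wild type and 389, 309 and 465 in knockout, where wild-type liver 1 lay within the knockout range. Nfil3, which opposes these factors at the D-box, was lower, at 489.6, 388 and 897 in wild type and 119.9, 232 and 185 in knockout. Among the repressors, Per3 stood at 160.5, 108 and 35.5 in wild type and 619.6, 428 and 564 in knockout and Per2 at 126, 117 and 18.1 in wild type and 641, 351 and 589 in knockout, and Per1 and Cry2 were also higher in each knockout liver, by 0.91 and 0.71 on the log2 scale. Cry1 stood at 110, 109.7 and 262 in wild type and 125, 69.3 and 111 in knockout, and its groups overlapped. Clock, the partner of Bmal1, stood at 1560.5, 1850.1 and 1869.5 in wild type and 602, 1063 and 1069 in knockout. Of the REV-ERB pair, which repress Arntl, Nr1d2 was higher in each knockout liver (log2 0.96) and Nr1d1 was not separated, at 749, 148 and 143 in wild type and 203, 392 and 669 in knockout. Wild-type liver 1 held the highest Nr1d1, Dbp, Hlf and Tef of the wild-type livers. Without wild-type liver 1, the higher core clock genes at an unadjusted p under 0.05 numbered 15, against 10 to 12 when any other library was left out.

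Because the hour of collection is not given, the same contrast was read through the time course, in which 1081 of the genes tested in the young livers were rhythmic over 24 h (limma, adjusted p under 0.05; 1085 in all, 5.8% of 18702). At an unadjusted p under 0.05 the young livers differed for 253 of these (23.4%) and for 1224 of 16948 genes that were not rhythmic (7.22%); over all genes the share was 7.99%. The direction followed the hour of the fitted peak. Of the 185 genes that peaked within 2 h of zeitgeber time 12 (hours after lights on), 60 were higher and 3 lower at that p, with a median log2 difference of 0.39. Of the 201 that peaked around hour 8, 32 were higher and 1 lower. Of the 176 that peaked around hour 0, 1 was higher and 51 lower, with a median of -0.32, and of the 239 that peaked around hour 20, 5 were higher and 52 lower. Genes that peaked around hour 4 showed 6 higher and 2 lower of 104, and those around hour 16 showed 24 higher and 16 lower of 176. With the core clock and daily output lists left out, the counts were 50 higher and 2 lower of 172 around hour 12, and 1 higher and 47 lower of 170 around hour 0. With a library left out, genes that peaked around hour 12 held 36 to 87 higher and 1 to 6 lower, and those around hour 0 held 0 to 2 higher and 33 to 53 lower; the lowest counts of 36 and 33 were without knockout liver 1. A difference in the hour at which the groups were collected, and a difference between genotypes at one hour, cannot be told apart in these 6 livers.

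**Figure D3:**
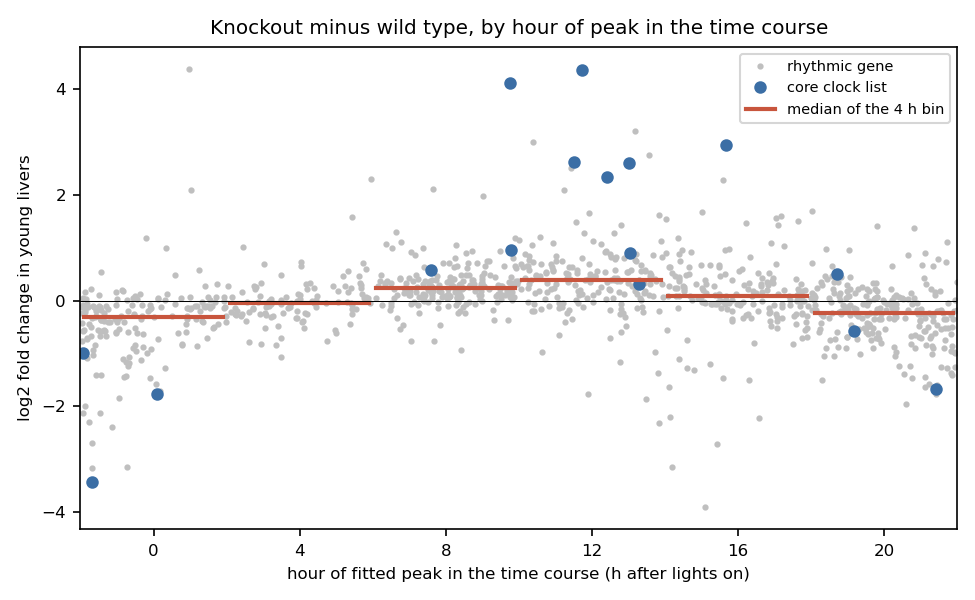
Log2 fold change in the young livers (knockout minus wild type) of the 1081 rhythmic genes against the hour of their fitted peak in the separate time course, in hours after lights on; red lines are medians of 4 h bins and blue points are rhythmic members of the core clock list. The medians run from -0.32 around hour 0 to 0.39 around hour 12.

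Of the 31 members of the acute-phase list, 3 were rhythmic in the time course (9.68%, against 5.66% of all genes tested and 69.6% of the core clock list). At an unadjusted p under 0.05, 22 of the 31 were lower in the knockout livers and 1 was higher (71.0% and 3.23% of the list, against 4.11% and 3.89% of all genes), with a median log2 difference of -0.80. With kidney in the fit 2 passed, both lower (0.173% of all genes were lower in that fit). In the authors' deposited table, 9 were lower and 0 higher (29.0% and 0%, against 0.618% and 0.487% of all genes). Saa1 and Saa2, the serum amyloid A genes that rise most in the response, were the members with the largest difference. Saa1 stood at 10337, 57294 and 9662 in wild type and 584, 1089 and 1155 in knockout (log2 -4.31 ± 0.64; limma with kidney in the fit, adjusted p = 0.0338). Saa2 stood at 4723, 52607 and 8483 in wild type and 155, 212 and 279 in knockout (log2 -5.93 ± 0.76, adjusted p = 0.0149). Wild-type liver 2 was far above the other wild-type livers for both, and still the lowest wild-type value was far above the highest knockout value. The 2 genes are near copies of each other, and the division of reads between them is uncertain.

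The window at the start of Saa1 (chr7:46742931-46743230, minus strand, RefSeq on GRCm38.p6, 5′ to 3′) is shown with its 2 matches to a C/EBP-type element (TTGNGNAA, either strand) in capitals, because C/EBP factors are known regulators of acute-phase genes.
Saa1: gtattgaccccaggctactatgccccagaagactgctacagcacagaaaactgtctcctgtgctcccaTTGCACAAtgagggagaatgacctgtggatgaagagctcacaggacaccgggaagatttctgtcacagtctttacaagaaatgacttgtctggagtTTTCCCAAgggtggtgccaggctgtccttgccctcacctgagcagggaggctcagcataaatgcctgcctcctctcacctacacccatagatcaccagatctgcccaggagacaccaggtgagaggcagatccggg
Of 25 acute-phase genes with a start window, 11 held this element (44.0%, against 14.9% of all 27025 genes) and 7 the STAT element TTCNNNGAA (28.0%, against 9.55%). An NF-kB-type pattern, GGGANNTCC, was found in 0 (4.94% of all genes). Other forms of the NF-kB site were not searched, so that 0 does not show that such sites are absent.

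Most other members had smaller differences in the same direction. Orm2, an orosomucoid, stood at 911, 7901 and 2707 in wild type and 523, 318 and 217 in knockout, and Lrg1, a leucine-rich glycoprotein of plasma, at 1888, 3791 and 2841 in wild type and 971, 1291 and 1417 in knockout. Lcn2, which withholds iron from bacteria, stood at 189, 9256 and 980.2 in wild type and 139.9, 41.2 and 96.4 in knockout. Wild-type liver 2 was far above the rest and wild-type liver 1 was close to knockout liver 1. Serpina3n, a protease inhibitor, stood at 6506, 16905 and 9466 in wild type and 4097, 4652 and 5151 in knockout, and Lbp, which binds lipopolysaccharide, at 1750, 4912 and 2150.3 in wild type and 949, 899 and 1534 in knockout. Haptoglobin (Hp), which binds free haemoglobin, stood at 62996, 177000 and 107140 in wild type and 54130, 42427 and 44589 in knockout, so the knockout livers were below each wild-type liver also for a transcript at high level. Fibrinogen genes were less separated: Fga stood at 109080, 210410 and 158670 in wild type and 79079, 94164 and 108350 in knockout. Of the receptors and factors that drive the response, Stat3 was lower (-0.55 on the log2 scale), Il6ra was higher (0.67), and Cebpb, Cebpd and Il1r1 did not pass an unadjusted p of 0.05 (-0.19, -0.29 and 0.04). Hamp, the iron hormone hepcidin, stood at 585, 1617 and 778 in wild type and 2739, 669 and 1790.4 in knockout, with no separation.

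Wild-type liver 2 had the highest value of all 6 libraries for 28 of the 31 members. Without wild-type liver 2, the members lower at an unadjusted p under 0.05 numbered 14 and the median log2 difference was -0.51. Leaving out any other library gave 13 to 25 members and a median of -1.03 to -0.76. The Kupffer cell markers, of the resident macrophages of liver, stood lower in 11 of 12 cases with a median of -0.24, and 0 passed an unadjusted p of 0.05 in limma; without wild-type liver 1 it was 7 and without knockout liver 1 it was 1. Their summed values were 9079.5 to 14502 in the wild-type livers and 9085 to 10866 in the knockout livers, so the ranges overlapped. Of 5 neutrophil markers tested, 4 stood lower, with a median of -0.70 (-0.06 without wild-type liver 3), and 1, S100a9, was lower at an unadjusted p under 0.05; the summed values were 66.8 to 246 in wild type and 54.3 to 93.6 in knockout. S100a9 stood at 23, 88.7 and 126 in wild type and 9.84, 22.6 and 26.5 in knockout, with wild-type liver 1 inside the knockout range, while Ly6g was at 0 in 5 of the 6 livers and Elane and Camp at no more than 1.91 in any. The part of these cells in the acute-phase difference was not tested, and in whole liver fewer cells of a type and less RNA per cell cannot be told apart.

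For many acute-phase genes the young wild-type livers lay above the range of the time-course livers. Values were expressed per 1000000 of each library's own sum for this purpose; the tables were normalized separately and the cohorts differ in age, so this is a description with no test. For 14 of the 31 acute-phase genes (45.2%), each young wild-type liver was above all 12 time-course livers of either genotype, against 2.25% of all genes. For the young knockout livers this held for 2 of the 31 (6.45%, against 4.58% of all genes). Saa1 ranged from 351 to 2381 per 1000000 in the young wild-type livers, from 23.9 to 47.3 in the young knockout livers and from 14.3 to 160 in the time course. Hp ranged from 2456 to 7355, from 1611 to 2214 and from 848 to 1743 in the same order. Gadd45g, outside the list, showed the same order: 10.9 to 23.2 per 1000000 in the young wild-type livers, 0.594 to 2.43 in the young knockout livers and 0.166 to 3.63 in the time course. Ptp4a1 was different, with both young groups above the whole time course, at 23.9 to 31.6 in wild type and 9.75 to 14.4 in knockout against 1.95 to 7.93.

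**Figure D4:**
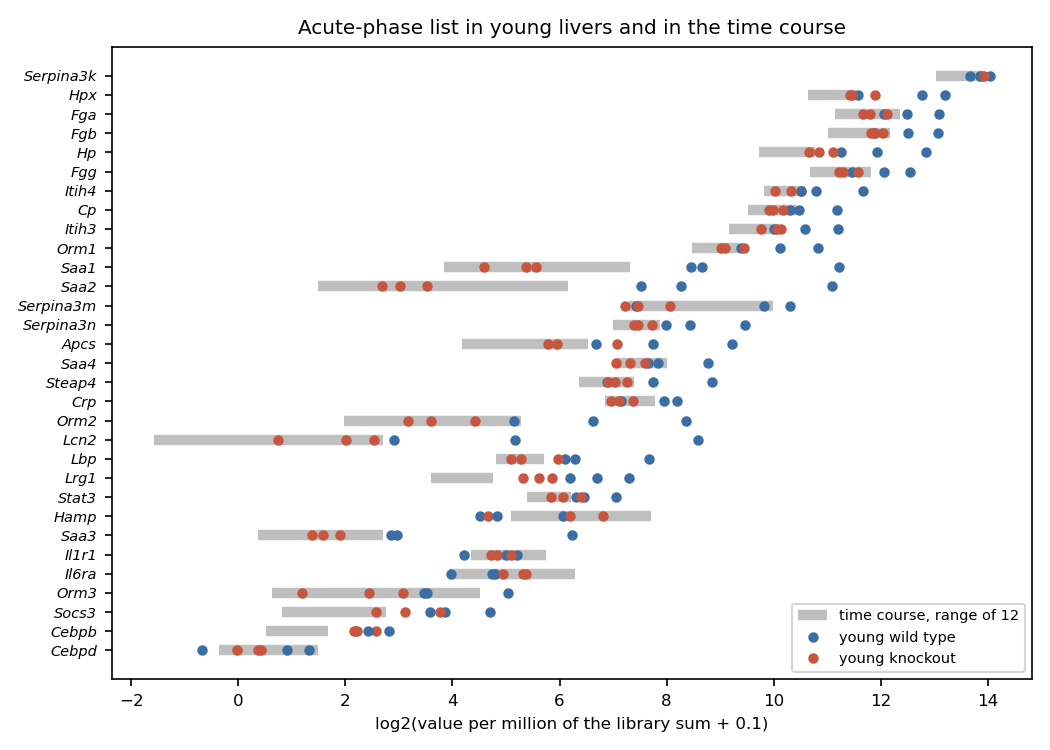
Values per 1000000 of the library sum (log2 of the value plus 0.1) of the 31 acute-phase genes in each young wild-type liver (blue) and young knockout liver (red), with the range of the 12 time-course livers as a grey bar. For 14 genes, among them Saa1, Saa2, Hp and Lcn2, all 3 blue points lie to the right of the bar.

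Genes that respond quickly to stress and hormones also held more lower than higher members. Of 19 immediate early genes tested, 5 were lower and 0 higher at an unadjusted p under 0.05 (26.3% and 0%, against 4.11% and 3.89% of all genes). Their median was -0.59, with 4 to 7 lower when a library was left out and 2 higher without wild-type liver 1. In the authors' deposited table, 2 were lower (10.5%, against 0.618% of all genes). Fos stood at 69.8, 62.2 and 200.2 in wild type and 19, 29.6 and 14.9 in knockout, Atf3 at 26.7, 80.9 and 108 in wild type and 13.4, 13.1 and 20 in knockout and Egr1 at 203, 86.8 and 268 in wild type and 11.8, 109 and 51.2 in knockout. Fos and Atf3 did not overlap, while Egr1 of knockout liver 2 lay above wild-type liver 2. Of 15 genes of the glucocorticoid response, 4 were lower and 1 (Per1) higher (26.7% and 6.67%), with a median of -0.35. With a library left out there were 4 to 6 lower. In the authors' deposited table, 4 were lower (26.7%, against 0.618% of all genes). Sgk1, a kinase that rises with corticosteroids, stood at 518, 415 and 705 in wild type and 253, 264 and 248 in knockout. Igfbp1, a binding protein of insulin-like growth factors that is suppressed by insulin, stood at 1115, 3012 and 7085 in wild type and 254, 576 and 834 in knockout. Zbtb16 stood at 309, 320.4 and 225 in wild type and 154, 160.1 and 137 in knockout. Of 21 endoplasmic reticulum chaperone genes, 6 were lower and 0 higher (28.6% and 0%). Hspa5 (BiP) stood at 14133, 24636 and 22168 in wild type and 12681, 13089 and 15204 in knockout and Hyou1 at 5370, 7076 and 5862 in wild type and 2711, 3903 and 4745 in knockout. Hspa5 overlapped. Without wild-type liver 1 the count was 8, and without any other single library it was 2 to 4. Of 20 cytosolic heat shock genes, 3 were lower and 0 higher (15% and 0%), with 1 lower without knockout liver 3 and 5 without wild-type liver 1. In the time course, 16 of these 20 genes were rhythmic (80%), against 5.66% of all genes tested. So were 9 of the 15 glucocorticoid genes (60%), 9 of the 21 chaperone genes (42.9%) and 1 of the 19 immediate early genes (5.26%).

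Several metabolic lists held more higher than lower members. Of 21 genes of fatty acid synthesis, 6 were higher and 2 lower at an unadjusted p under 0.05 (28.6% and 9.52%, against 3.89% and 4.11% of all genes), with a median of 0.35. In the authors' deposited table, 3 were higher (14.3%, against 0.487% of all genes). Srebf1, the transcription factor that drives lipid synthesis after feeding, stood at 1971, 1826 and 1069.6 in wild type and 4569, 2908 and 3122 in knockout, higher in each knockout liver. Thrsp stood at 3045, 4626 and 2569 in wild type and 17725, 8954 and 4860.2 in knockout, and Insig2, which restrains SREBP, was lower, at 6014, 4846 and 10035 in wild type and 926, 4269.8 and 3581 in knockout. Knockout liver 1 was the extreme library for all 3 of these genes and the highest for 11 of the 21. Without it 3 were higher, without any other library 4 to 9, and without wild-type liver 3 the median was 0.18. Of 21 genes of glycolysis and glycogen, 4 were higher and 0 lower (19.0% and 0%, median 0.21). The authors' deposited table held 3 of them as higher (14.3%, against 0.487% of all genes). With a library left out there were 3 to 5 higher, and without wild-type liver 1 there were 2 lower. Gys2, liver glycogen synthase, stood at 3238, 1618 and 1781 in wild type and 5746, 5105 and 4511 in knockout, Slc2a2, the liver glucose transporter, at 6079.9, 4060 and 5882 in wild type and 11269, 9415 and 8660 in knockout, and Pklr, liver pyruvate kinase, at 1871, 1782 and 1559.6 in wild type and 7044, 3116 and 2746 in knockout. These 3 separated the groups completely. Of 25 genes of gluconeogenesis and amino acids, 4 were higher and 1 (G6pc) lower (16% and 4%). The higher members numbered 8 without wild-type liver 3 and 2 without wild-type liver 1, wild-type liver 2 or knockout liver 1. The alanine aminotransferases Gpt and Gpt2 were higher by 0.66 and 0.58. Cholesterol synthesis genes stood lower in 19 of 22 cases, with a median of -0.22, and 0 were lower at that p (2 without wild-type liver 1 or wild-type liver 3). Wild-type liver 2 had the highest value for 20 of the 22, and without that library the median was 0.06. In the time course, 11 of these 22 genes were rhythmic (50%), against 5.66% of all genes tested. So were 10 of the 21 fatty acid synthesis genes (47.6%) and 8 of the 21 glycolysis and glycogen genes (38.1%). For gluconeogenesis and amino acids it was 9 of 25 (36%).

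Of 27 targets of PPARalpha, the receptor that turns on fat oxidation in fasting, 25 stood higher and 2 lower, with a median of 0.45; 6 were higher and 1 lower at an unadjusted p under 0.05 (22.2% and 3.70%, against 3.89% and 4.11% of all genes). Wild-type liver 2 was the lowest library for 20 of 28 members of the list, and without it the median was 0.18. Ppara itself stood at 2685, 1603 and 1652 in wild type and 3278, 2710.2 and 4300.5 in knockout, Cpt1a, which admits fatty acids to mitochondria, at 7293, 5609 and 5432 in wild type and 8716, 7694 and 9673 in knockout, and Fabp1, the liver fatty acid binding protein, at 57672, 31912 and 43130 in wild type and 67171, 101760 and 82911 in knockout. The groups touched for none of these 3. The lower member was Pdk4, which slows pyruvate oxidation, at 572, 93.6 and 136 and 55.6, 59.2 and 46.4 (wild type, then knockout). Of 39 peroxisome genes, 33 stood higher, with a median of 0.27, and 6, Eci3 among them, were higher and 1 lower at that p (15.4% and 2.56%). Wild-type liver 2 was the lowest library for 21 of the 39, and without it the median was 0.16. Pex26, which anchors the import machinery, stood at 401, 289 and 256 in wild type and 716, 525 and 508 in knockout. Without wild-type liver 1 the higher members numbered 16 and 13 for the 2 lists, and without any other single library 2 to 4 and 2 to 6. Of 31 genes of xenobiotic metabolism, 8 were higher and 1 (Ahr) lower (25.8% and 3.23%), with a median of 0.30. The higher members numbered 14 without wild-type liver 1, 1 without knockout liver 1, 2 without wild-type liver 2 and 4 to 5 without any other library. Wild-type liver 2 was the lowest library for 21 of the 31, and without it the median was 0.13. Nr1i3, the receptor CAR, stood at 2524, 1709 and 2288 in wild type and 4423, 2988 and 3001 in knockout, and Gstm2 at 849, 782 and 974 in wild type and 1269, 1251 and 1228 in knockout. The female-biased Cyp2a4 and Cyp2b9 stood at 293 and 141 in knockout liver 1, far above every other liver. In the time course, 8 of the 27 PPARalpha genes (29.6%) were rhythmic, against 5.66% of all genes tested. So were 5 of the 39 peroxisome genes (12.8%) and 12 of the 31 xenobiotic genes (38.7%).

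Of 30 genes of NAD metabolism, 4 were higher and 4 lower at an unadjusted p under 0.05 (13.3% in each direction, against 3.89% and 4.11% of all genes), with a median of 0.11. With a library left out there were 2 (without knockout liver 1, knockout liver 3 or wild-type liver 2) to 6 higher and 1 (without knockout liver 1) to 5 lower, and 10 of the 30 were rhythmic in the time course (33.3%, against 5.66% of all genes tested). Nmrk1, which phosphorylates nicotinamide riboside, stood at 376, 267 and 270.3 in wild type and 767, 523 and 494 in knockout, and Nampt, the rate-limiting enzyme of salvage and a clock output, at 1373, 866 and 1049 in wild type and 2236, 1343 and 1580.4 in knockout. Nnmt, which methylates nicotinamide, was lower, at 1553, 3557 and 4007 in wild type and 1756, 877 and 629 in knockout, and so were the kynurenine pathway genes Acmsd and Kynu, with log2 differences of -0.98 and -0.45. Knockout liver 1 lay within the wild-type range for Nnmt, and knockout liver 2 of Nampt lay below wild-type liver 1. Of the 15 other nudix hydrolases, 1 was higher and 0 lower (6.67% and 0%, median 0.11). Of 27 genes of RNA decapping and decay, 1 was higher and 1 lower (3.70% each, median 0.02); the lower one, Pnrc1, stood at 648, 856 and 827 in wild type and 276, 421 and 416 in knockout. Of 26 interferon and antigen presentation genes 2 were lower and 0 higher (7.69% and 0%), and of 14 apolipoproteins 0 passed in either direction in limma. Of 28 complement and coagulation genes, 2 were higher and 1 lower (7.14% and 3.57%, against 3.89% and 4.11% of all genes). Their median was 0.01, against -0.80 for the acute-phase list. By RNA class, 108 of 139 snoRNAs stood higher in the knockout livers (77.7%, against 50.3% of all genes; median 0.46). At an unadjusted p under 0.05, 18 were higher (12.9%) and 2 lower (1.44%), with 7 (without knockout liver 2) to 31 (without wild-type liver 3) higher when a library was left out. Of 48 snRNAs, 10 were higher (20.8%) and 5 lower (10.4%), with 5 to 13 higher and 1 to 3 lower when a library was left out.

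Of 14 pyrimidine genes, 4 were higher and 1 lower at an unadjusted p under 0.05 (28.6% and 7.14%, against 3.89% and 4.11% of all genes). Their median was 0.16, with 2 to 4 higher when a library was left out. Next to Upp2, the breakdown enzymes Dpys and Upb1 stood 0.32 and 0.43 higher on the log2 scale, thymidine kinase Tk1 1.19 higher, and cytidine deaminase Cda had a log2 difference of -1.40. Of 23 daily output genes of liver, 9 were higher and 5 lower (39.1% and 21.7%, median 0.44; 3 higher without knockout liver 1 and 4 without wild-type liver 2), and 21 of the 23 were rhythmic in the time course. Of 16 genes of the insulin and growth hormone axis, 2 were higher and 2 lower (12.5% each), the latter Igfbp1 and Irs2, the insulin receptor substrate (-1.26). Of 17 polyamine and choline genes, 3 were higher and 2 lower (17.6% and 11.8%). Sms, spermine synthase, stood at 58.2, 36.4 and 96.4 in wild type and 139, 94.4 and 132 in knockout. Of 16 genes of the integrated stress response 0 passed in either direction (limma). Endothelial, stellate, cholangiocyte, T cell and B cell marker lists also held 0 members at an unadjusted p under 0.05 in limma.

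**Figure D5:**
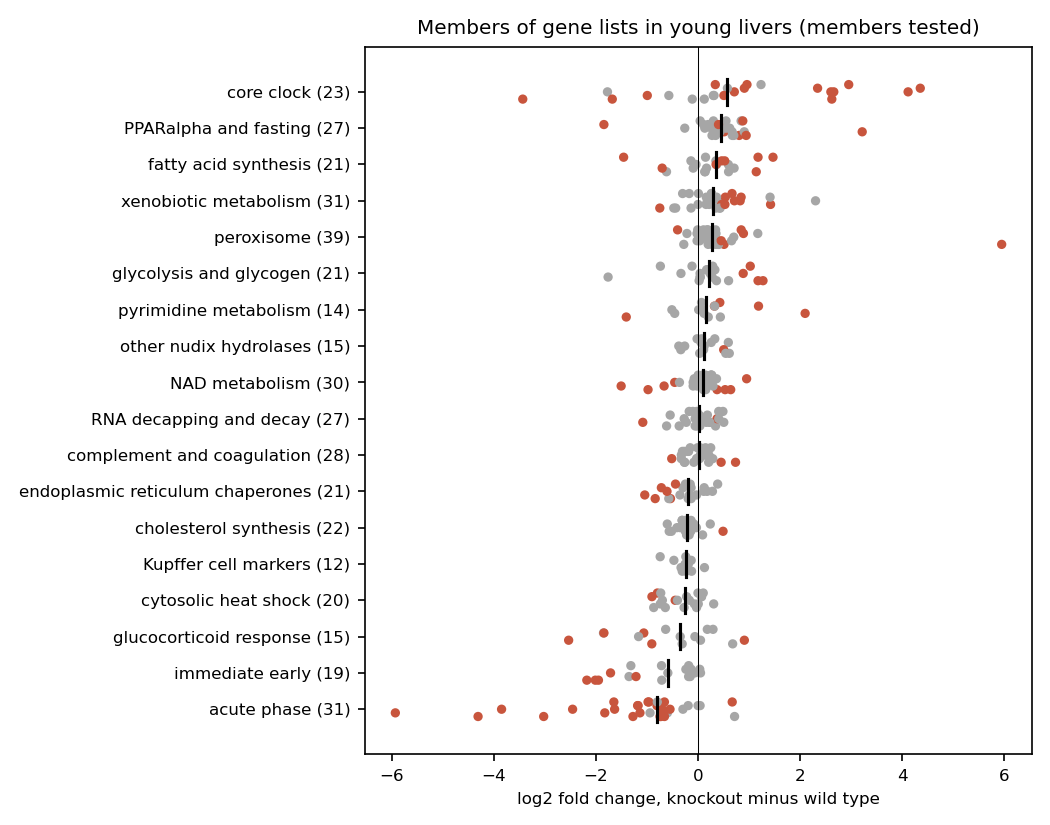
Log2 fold change (knockout minus wild type) of the members of 18 lists in the young livers; each point is a gene, red at an unadjusted p under 0.05 and grey otherwise, and black bars are list medians. Of the 18 shown, the acute-phase list has the lowest median, -0.80, and the core clock list the highest, 0.58.

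The knockout effect in the young livers was then tested against that in the time-course livers, where the hour is known and shared by the genotypes. It differed past the threshold for 7 genes (0.0388% of 18029; limma interaction), with 1879 at an unadjusted p under 0.05 (10.4%). These were Upp2, Ciart, Arntl, Saa2, Usp2, Saa1 (limma, adjusted p = 0.0196 for each) and AI506816 (adjusted p = 0.0222). For Upp2 the log2 difference was 2.10 in the young livers and -0.34 in the time course, for Arntl -3.43 and 0.39, and for Saa1 -4.31 and 1.08. AI506816 stood at 1827, 2076 and 556 in wild type and 164, 211 and 214 in knockout among the young livers, where wild-type liver 3 was nearest to the knockout livers, against a log2 difference of 0.98 in the time course. Without knockout liver 3, or without either time-course library of hour 4, the count was 0 (limma), and without wild-type liver 1 it was 130. Of the 66 genes called with kidney in the fit, 65 had a value in the time course, 20 of these with the same sign, and 9 with a log2 difference over 1 in size. In kidney, 47 of 60 had the same sign and 14 a log2 difference over 1 in size. For 50 of the 60, the kidney log2 difference was under 50% of the liver one in size. The same counts over all genes were not taken.

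Around the deleted gene, 276 genes within 20 Mb on chromosome 17 were tested. At an unadjusted p under 0.05 there were 16 (5.80%), against 8.02% elsewhere. With kidney in the limma fit 0 were called, against 65 of 18811 genes elsewhere. The 3 with the smallest p were Lrg1 at a distance of 2.89 Mb, Plin4 at 2.9 Mb and Snord53 at 12.6 Mb. Plin4, a lipid droplet protein also used as an adipocyte marker, stood at 170, 141 and 122 in wild type and 86, 71.5 and 83.7 in knockout, lower in each knockout liver. Of the 4 adipocyte markers tested, 3 stood higher and 1, Plin4, lower, with a median log2 difference of 0.37. In the authors' deposited table, 1 gene of this window, Lrg1, had an adjusted p under 0.05, against 209 of the genes elsewhere.

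Of the 211 genes at an adjusted p under 0.05 in the authors' deposited table, 208 were also at an unadjusted p under 0.05 in the limma fit and all 211 had the same sign. Of these, 70 were rhythmic in the time course and 140 were not, and 9 were on the core clock list. The authors' deposited log2 fold change was below 0.1 in size for 15 of the 211, among them Saa2 (-0.0383, adjusted p 1.45e-07) and Saa1 (-0.0465, adjusted p 0.000105), whose library values differ by far more. That column therefore cannot be read as the ratio of the values beside it.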

How the data were processed

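Liver, kidney and time-course RNA was deposited as 1 table per set, normalized separately. Per the file headers and values, the deposited tables hold a signal per gene: normalized estimated counts that are not whole numbers. The submitters' processing notes name, without roles, GRCm38, DESeq2 1.24.0, DESeq, Salmon 0.12.0 and R 3.6.0. The liver table also holds the authors' log2 fold change and the authors' adjusted p-value, whose computation the sources here do not describe. Because the values are not counts, no count test was run. Read depth is unknown, so no counting interval is given.

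Values were fitted as log2(value + 1) with limma 3.58.1 in R 4.3.3 (trend in the prior variance, two-sided, Benjamini-Hochberg over all genes with a mean of at least 1, threshold 0.05). Fold changes on this scale understate the change of low genes. An exact permutation test of 3 against 3 cannot go below p = 0.1. Kidney entered as an alternative fit that shares the spread and as an interaction. In both, liver and kidney libraries were treated as independent with no term for the animal, so any sharing of mice between the tissues was ignored. The time course entered as an interaction with the hour as a factor, and as a test of a 24 h cosine and sine with genotype. Replicate 3 of wild-type kidney was not used here. The liver, time-course and rhythm fits were tried on simulated data with independent values and the same dispersion for every gene. No outlying library was simulated, and the fit with kidney was not simulated.

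The comparison and the 48 gene lists were chosen with earlier results of these data known, and set beside counts over all genes without a set test. Genes named were Nudt12, those past each threshold (up to 15 in each direction by p), the 15 with the smallest p in each direction among genes with a mean of at least 50 whose groups do not overlap, the 10 with the smallest adjusted p in each direction in the authors' table, the clock list, up to 4 members of every other list and 3 neighbours of Nudt12. Further genes, and the comparison per 1000000 with the time course, were chosen after their values were seen. Leaving out each library for the peak-hour groups, histone genes and RNA classes was also added after seeing the data. Promoter windows are from RefSeq (170 of 233 named genes matched).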

Additional observations from a re-analysis of the deposited data

Results flagged for a closer look

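The effect of the knockout differed between young and time-course livers past the threshold for 7 genes (limma interaction, adjusted p of 0.0222 or less). On the log2 scale, the effect in young livers minus that in the time course was 2.44 for Upp2, 4.77 for Ciart and 2.94 for Usp2. It was -3.83 for Arntl, -7.36 for Saa2, -5.38 for Saa1 and -3.70 for AI506816. The cohorts differ in age, and the hour of collection is given for the time course and not for the young livers, so cohort, age and hour cannot be told apart.

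The effect on Eci3 was 6.25 log2 units larger in liver than in kidney (limma interaction, adjusted p = 0.0245). Without wild-type liver 3, knockout liver 2 or any single kidney library, Eci3 was not called in this test.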

How the results depend on the processing

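The 3 adjusted calls became 1 with a pseudocount of 0.1, 1 with a mean of at least 10, 8 with no filter, and 66 with liver and kidney in 1 fit. With no trend in the prior variance 2 genes passed, Gm45692 and an entry of Igsf5, and 0 of the 3 main calls did. Leaving out each liver in turn gave 0 to 15. Without wild-type liver 2, wild-type liver 3 or knockout liver 1, Nudt12 was the only main call that stayed. Higher genes at an unadjusted p under 0.05 (742) became 1158 with kidney in the fit and 500 to 1044 with a library left out; lower genes (784) became 1199 and 526 to 970. Genes without overlap (2659) became 4014 to 5353 with 2 libraries in a group, as fewer samples overlap less. The liver minus kidney count of 1 became 0 with a pseudocount of 0.1 and ranged from 0 to 3 with a library left out. The young minus time course count of 7 became 21 with a mean of at least 10 and ranged from 0 to 130 with a library left out. With no replicate block for the hour it was 2. Leaving out hours gave 464 to 605 rhythmic genes against 1085, with fewer samples. The cause of the other shifts was not tested.

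No paired analysis was possible for the young livers because their labels carry no replicate number. Of the named genes' values under the alternatives, 3638 were counted as the same, 51 newly passed, 19 no longer passed and 4 moved. For genes at an unadjusted p of 0.05 or more, a change of sign within the standard error was counted as the same. The 4 that moved were changes of sign beyond the standard error in such genes. For genes at an unadjusted p under 0.05, 0 values changed sign. Over 16 alternatives Nudt12 passed in 14, Eci3 in 8 and Gm30948 in 7, with adjusted p in limma of 0.000194 to 0.101, 0.000356 to 0.168 and 0.0057 to 0.281. Scaling to equal sums, chosen after seeing the data, moved the median of all genes from 0.0029 to 0.038 on the log2 scale and gave 879 higher and 630 lower genes at an unadjusted p under 0.05 (58.3% higher, against 48.6%), so the side with more genes turned from lower to higher.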
